A study of Mus musculus with 25 samples.

Results

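The transcription factor p53 (gene Trp53) and 9 genes that it is known to activate were followed across mouse thymocytes. These genes were Cdkn1a, Trp53inp1, Bbc3, Pmaip1, Phlda3, Mdm2, Ccng1, Sesn1 and Sesn2. They were found by their names, as all array probes annotated to one of the 10 genes. Of 24 such probes, 22 passed the filter on dim probes. They measured 9 of the 10 genes, of 15533 genes measured in all. No probe annotated to Trp53 was analysed here, so every value below is of a target gene and none is of p53 itself.

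p53 protein is kept low by the ubiquitin ligase Mdm2 and accumulates after DNA breaks, lost growth signals and other stress. It then binds DNA near its target genes and raises their transcription, which halts the cell cycle, starts cell death, or adjusts metabolism and growth. In the thymus, p53 is known for removing immature thymocytes with unrepaired breaks, and mice without it develop thymic lymphoma.

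Total RNA of sorted thymocytes was hybridised to 25 Illumina bead arrays, and the study compared young and old cells at the TN2 and TN3 stages. All cells were CD4-CD8-CD3-CD25+, the stretch of thymic development in which cells lose CD44 (TN2, then TN3) and rearrange the T cell receptor beta locus. Old cells without competition (n = 9) were of F1(WB x B6/Ly5.1) background and came from Rag2-/-γc-/-KitW/Wv hosts, which the labels call non-competitive. These mice carry defects in lymphocyte receptor rearrangement, cytokine receptor signalling and the Kit receptor. The label of donor origin was missing for 1 of these 9 samples. Old cells with competition (n = 6) were donor-origin B6/Ly5.1 cells with CD45.1 from wild type hosts. Young cells (n = 6) were C57BL/6 cells with CD45.2, labelled as the host's own. Wild type controls of B6/Ly5.1 background comprised TN3 cells without CD44 (n = 2) and TN2 cells with CD44 (n = 2). Donor strain, host and group changed together, so their parts in any difference cannot be told apart. The labels used here give neither the age of the mice nor whether each sample was a different mouse; the p-values therefore cover sample-to-sample spread, which may be technical.

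The promoters of the target genes show which of them carry a p53-like sequence close to the start of transcription. RefSeq windows (build GRCm38.p6) from 250 bases before to 50 bases after a gene's start were searched on both strands for the p53 consensus decamer. This motif of 10 bases is the unit that p53 binds in pairs. It occurred in 8.36% of 32851 windows, and a pair at most 13 bases apart occurred in 24 of them, or 0.0731%. Of the measured target genes, 7 had a window, and Cdkn1a, Mdm2, Ccng1 and Sesn1 held a decamer in one. The stretches around them are shown as sequence, and a link to the differences between old and young cells was not tested. Each is written 5′ to 3′ on the gene's strand, with the decamers in capitals.
Cdkn1a: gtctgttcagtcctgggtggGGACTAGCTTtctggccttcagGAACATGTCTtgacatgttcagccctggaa
Mdm2: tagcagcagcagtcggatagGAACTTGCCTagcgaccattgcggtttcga
Ccng1: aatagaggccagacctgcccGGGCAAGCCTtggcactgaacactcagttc
Sesn1: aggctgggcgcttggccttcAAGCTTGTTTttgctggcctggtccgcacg
The Cdkn1a stretch lies at chr17:29090886-29090957 on the plus strand, and it was the one with a pair. Its decamers span bases 73 to 64 and 51 to 42 before the start and are 12 bases apart. The Mdm2 stretch lies at chr10:117710915-117710964 on the minus strand, with the decamer 186 to 177 bases before the start. That of Ccng1 lies at chr11:40755442-40755491 on the minus strand (185 to 176 bases before the start). That of Sesn1 lies at chr10:41887246-41887295 on the plus strand (173 to 164 bases before the start). The windows of Bbc3, Phlda3 and Sesn2 held no decamer, which says only that these letters are not in those windows. Trp53inp1 and Pmaip1 had no window. Sequence outside the windows was not searched, so p53 sites elsewhere near these genes are not covered. A match describes the sequence and was not tested as a binding site.

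Values are given as log2 of the background-corrected and normalized intensity, on a scale whose floor is about 4. An array is said to detect a gene where its deposited detection p-value was below 0.05. The share of probes detected per array was 41.1% to 45.7% in old cells without competition, 46.8% to 49.4% with competition, 46.7% to 50.1% in young cells, 43.1% to 44.2% in TN3 and 43.9% to 44.6% in TN2 cells. Old cells without competition thus lay below old cells with competition and young cells and overlapped the TN3 and TN2 controls, and the part of this in the results was not tested. One library stood far apart from its group before any comparison. Array 6 of old cells with competition had 2304 genes more than 1 log2 unit from the mean of that group's other arrays, whereas its other 5 arrays had 85 to 185. Its mean log2 value over 3 measured genes of a list of 6 double-positive thymocyte markers (Cd4, Cd8b1 and Aqp11) was 8.40, against 6.91 to 7.14 on the other 5. Within that list Cd4 was at 8.86 on array 6 and at 4.55 to 5.31 on the group's others, while Cd8b1 was lower there, at 6.54 against 7.57 to 7.97. Several differences below are also given without this array. To a lesser degree, array 1 of old cells without competition (798 such genes, against 149 to 410 on its group's others) and array 5 of young cells (486, against 78 to 232) also stood off. For old without competition minus young, leaving out the first of these gave log2 differences of -1.38 for Cdkn1a, -1.12 for Trp53inp1 and -1.66 for Bbc3, all still called (limma adjusted p of 0.012, 0.0058 and 0.023). Leaving out young array 5 gave -1.45, -1.17 and -1.39, and the call of Bbc3 was lost (limma adjusted p of 0.013, 0.0063 and 0.091).

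Cdkn1a encodes p21, the inhibitor of cyclin-dependent kinases through which p53 stops the cell cycle. It was lower in both kinds of old cells than in young cells. In old cells without competition, its lowest, median and highest values were 4.97, 5.90 and 6.91, against 6.74, 7.28 and 8.11 in young cells. The groups overlapped in that the highest old array lay above the lowest young one. In old cells with competition the values were 4.16, 5.66 and 6.26, all below every young array. The 4.16 was array 6, where Cdkn1a was not detected and was the lowest of all 25 arrays. The TN3 arrays read 7.30 and 7.05, and the TN2 arrays 5.92 and 8.02. Young cells thus had the highest mean, followed by TN3, TN2, old without and old with competition, and each neighbouring pair in that order overlapped.

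Cdkn1a averaged 5.93 ± 0.58 in old cells without competition (SD, n = 9) and 7.34 ± 0.50 in young cells (SD, n = 6), a 2.66-fold lower level. The log2 difference was -1.41 ± 0.33 (SE; limma, Benjamini-Hochberg adjusted p = 0.0074). In old cells with competition it averaged 5.52 ± 0.72 (SD, n = 6), which was 3.55-fold lower than in young cells at a log2 difference of -1.83 ± 0.36 (SE; limma adjusted p = 0.0033). Without array 6 that difference was -1.56 ± 0.33 (limma adjusted p = 0.0061). Chips 2 and 4 each held 3 arrays of old cells with competition and 3 of young cells, and old minus young was -2.03 on chip 2 and -1.63 on chip 4. With the 6 arrays of chip 2 alone the call was lost (limma adjusted p = 0.51). Old cells without competition were on chips 1 and 5, with means of 6.14 ± 0.48 (SD, n = 6) and 5.53 ± 0.61 (SD, n = 3). They shared no chip with young cells, so chip and group cannot be told apart in that comparison. Between the old groups, without minus with competition was 0.42 ± 0.33 (95% interval -0.26 to 1.10; limma adjusted p = 0.616), and 0.15 ± 0.31 without array 6 (limma adjusted p = 0.890).

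In these bulk samples, fewer cells of a type and less RNA per cell cannot be told apart, and several markers of other stages and lineages were higher in young than in old cells. The mean log2 value over all 6 early progenitor and TN2 markers ranged over 4.23 to 4.72 on arrays of old cells without competition, 4.19 to 4.51 with competition and 5.45 to 6.12 in young cells. Over 6 measured of 7 myeloid markers the ranges were 4.20 to 4.59, 4.30 to 4.41 and 5.18 to 5.94. The mast cell gene Cpa3, the measured one of 4 such markers, had 4.09 to 6.33, 4.14 to 4.87 and 8.11 to 8.81. Not every marker moved this way. Over 5 measured of 6 erythroid markers the ranges were 4.22 to 5.48, 4.22 to 4.88 and 4.98 to 5.38, and Hbb-b1 was the one of them called lower in either kind of old cells. The myeloid genes Csf1r and Cd68 differed by 0.10 and 0.30 for old without competition minus young and were not called (limma adjusted p of 0.605 and 0.416). The part of cells with such markers in the Cdkn1a difference was not tested. On the TN3 arrays, the early progenitor list was at 4.53 and 4.76, the myeloid list at 4.47 and 4.67, and Cpa3 at 5.13 and 6.10, the last above every array of old cells with competition. On the TN2 arrays, the early progenitor list was at 6.39 and 6.44, the myeloid list at 5.98 and 5.64, and Cpa3 at 9.39 and 9.29. The myeloid list and Cpa3 were thus also high in the sorted TN2 controls. Markers of TN3 cells, all 6 measured, averaged 8.54 to 8.80 on arrays of old cells without competition, 8.48 to 8.70 with competition and 7.93 to 8.46 in young cells. Against young cells, 3 of the 6 were called higher without and 1 with competition, where 3.17% and 0.418% of all genes were. Cd3e and Rag1 averaged lower in old cells without competition (9.85 and 9.03) than in young cells (10.10 and 9.25). A list of 7 measured of 8 cell-division genes averaged 6.77 to 7.32 in old cells without competition, 6.39 to 7.30 with competition (6.39 on array 6) and 6.54 to 6.95 in young cells. Of these 7 genes, limma called 0 in each comparison of old and young cells and 0 between the old groups. Ccna2 averaged lower in old cells without competition than in young cells, at 4.82 against 5.15. A link of this list to Cdkn1a was not tested.

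**Figure D1:**
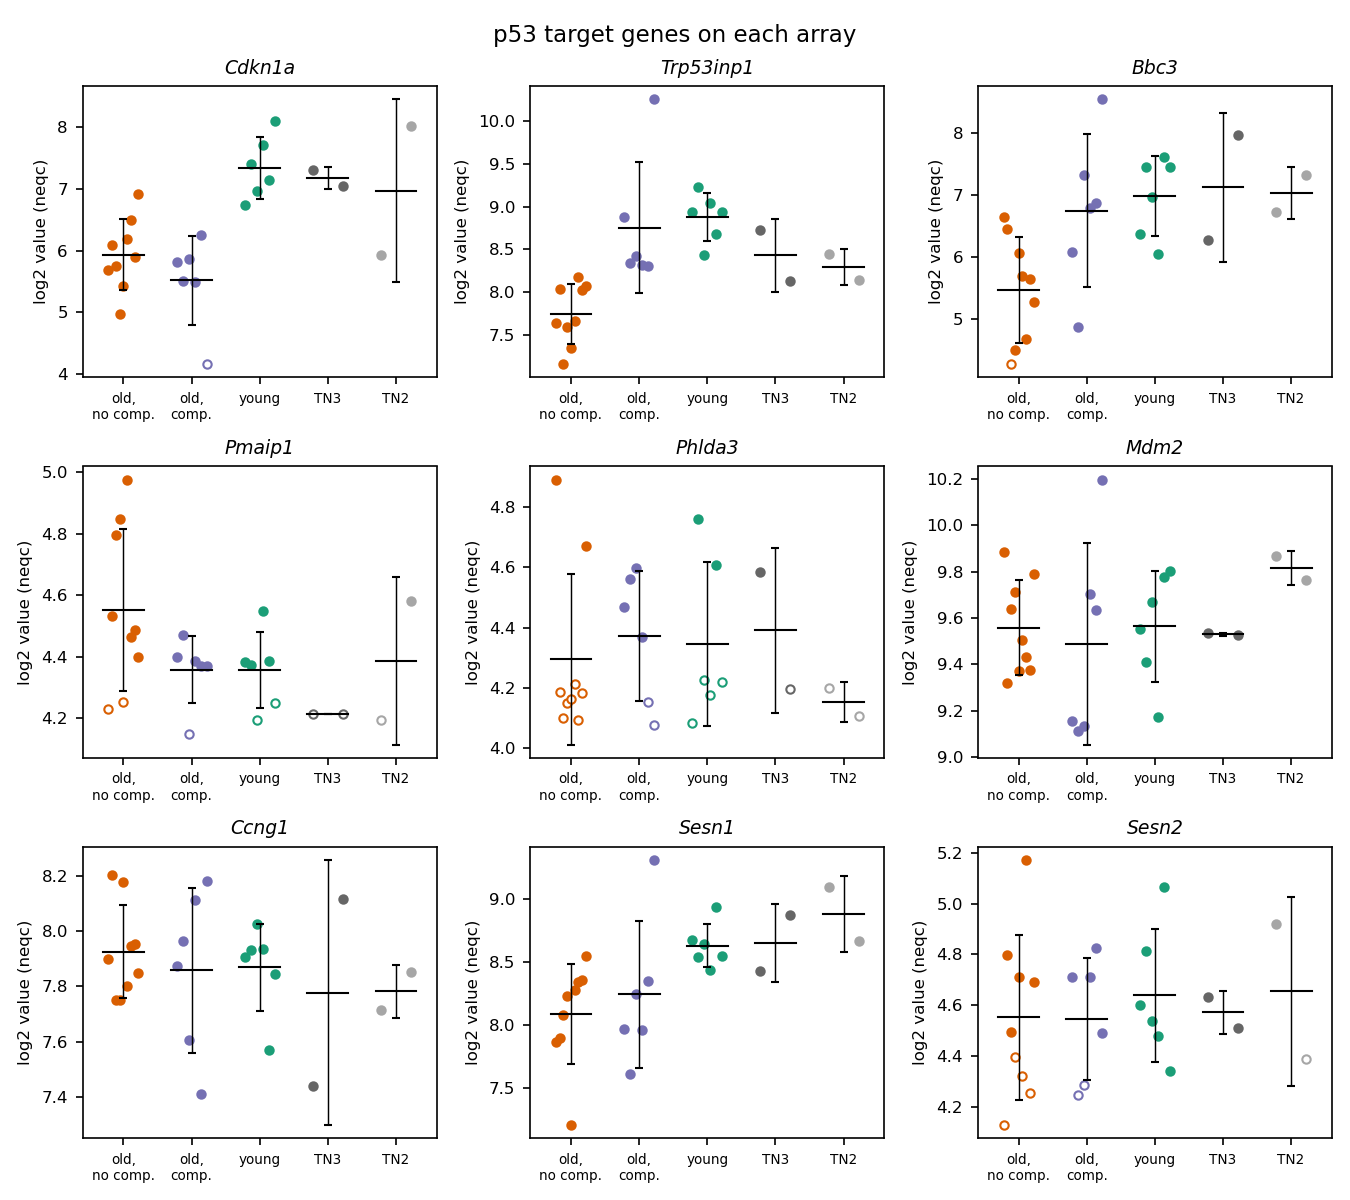
Log2 value of each of the 9 measured p53 target genes (vertical axes, a different range per panel) on every array, by group along the horizontal axis; "comp." stands for competition. Open circles mark arrays that did not detect the gene, and bars give the group mean ± SD. Cdkn1a lay at 4.97 to 6.91 and 4.16 to 6.26 in the old groups without and with competition and at 6.74 to 8.11 in young cells, and Trp53inp1 was at or below 8.18 in old cells without competition.

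Trp53inp1 encodes a stress protein that binds p53-activating kinases and takes part in cell death and autophagy. It separated the 2 kinds of old cells. In old cells without competition, its lowest, median and highest values were 7.16, 7.66 and 8.18. They were 8.30, 8.38 and 10.26 in old cells with competition and 8.43, 8.94 and 9.23 in young cells. No array of old cells without competition reached the lowest array of either other group. The TN3 arrays read 8.73 and 8.13, and the TN2 arrays 8.45 and 8.14, so that the control range overlapped every group. The order of means was young, old with competition, TN3, TN2 and old without competition, with overlap between all neighbours.

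Trp53inp1 averaged 7.75 ± 0.35 in old cells without competition (SD, n = 9), 8.75 ± 0.77 in old cells with competition and 8.88 ± 0.28 in young cells (SD, n = 6 each). Old without competition minus young was -1.13 ± 0.24 (SE; limma adjusted p = 0.0034), a 2.19-fold lower level. Old without minus old with competition was -1.01 ± 0.24 (SE; limma adjusted p = 0.036), a 2.01-fold lower level, and this is also the test of whether the differences of both old groups from young cells are unequal. Old cells without competition were on chips 1 and 5 and old cells with competition on chips 2 and 4, so chip and group cannot be told apart between the old groups. Old with competition minus young was -0.12 ± 0.26 (95% interval -0.67 to 0.42; limma adjusted p = 0.952). The 10.26 was again array 6, the highest of all 25. Without it, old without minus old with competition was -0.71 ± 0.17 (limma adjusted p = 0.028) and old with competition minus young was -0.43 ± 0.18 (limma adjusted p = 0.249). On the shared chips, old with competition minus young was 0.10 on chip 2, which held array 6, and -0.35 on chip 4. The call between the old groups was lost when any of 5 of the 15 arrays was left out, namely array 1 with or array 3, 4, 5 or 6 without competition, with limma adjusted p of 0.055 to 0.091. It was also lost with the 2 groups fitted alone (0.064) and with no filter on dim probes (0.0501).

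**Figure D2:**
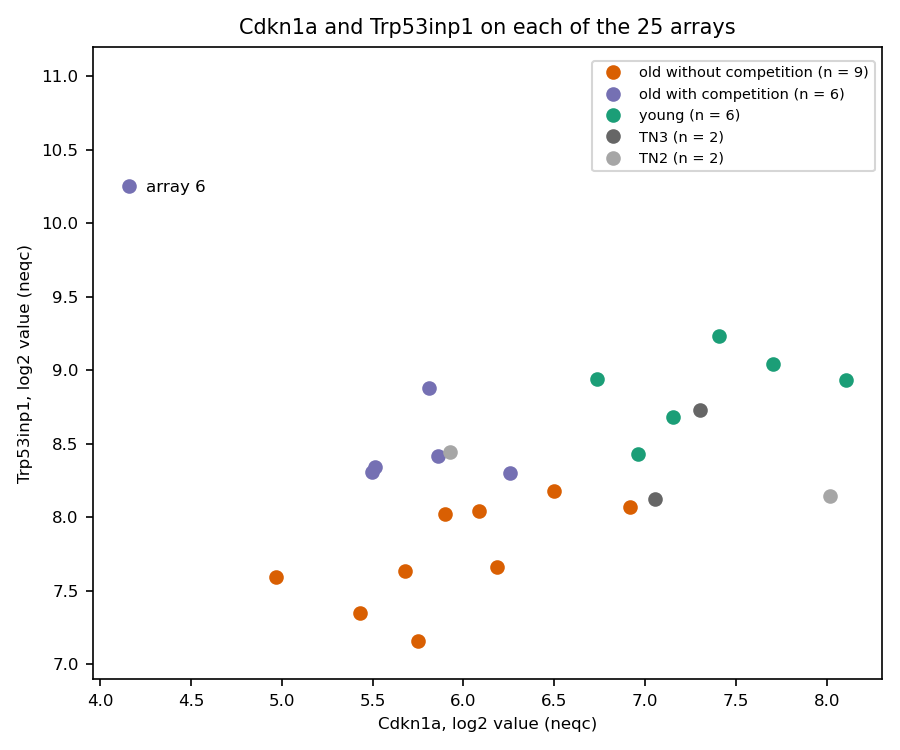
Log2 value of Cdkn1a (horizontal axis) against Trp53inp1 (vertical axis), 1 point for each of the 25 arrays, coloured by group. Old cells without competition were low in both, 5 arrays of old cells with competition were low in Cdkn1a and near 8.30 to 8.88 in Trp53inp1, and array 6 lay apart at 4.16 and 10.26.

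Of the death-inducing targets, Bbc3 encodes PUMA, a BH3-only protein that blocks the survival members of the Bcl2 family. Its lowest, median and highest values were 4.27, 5.64 and 6.63 in old cells without competition, 4.87, 6.83 and 8.55 in old cells with competition and 6.05, 7.21 and 7.61 in young cells. The arrays of old cells without competition spread widely and overlapped both other groups. TN3 arrays read 6.27 and 7.98, and TN2 arrays 6.73 and 7.32. Old cells without competition averaged 5.46 ± 0.85 (SD, n = 9), against 6.98 ± 0.64 in young cells (SD, n = 6), a log2 difference of -1.52 ± 0.46 (SE; limma adjusted p = 0.038). The call was lost when any of 8 of the 15 arrays was left out, namely young array 2, 3, 5 or 6, or array 3, 4, 7 or 9 of old cells without competition (limma adjusted p up to 0.091). It was also lost under 4 of 8 other settings. One of these was the mean of the gene's probes, which gave -0.48 (limma adjusted p = 0.174). The deposited log2 table gave -0.75 (0.065), values without background correction -0.73 (0.066) and no filter on dim probes -1.52 (0.060).

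The 3 Bbc3 probes did not move together. The other two differed by 0.05 ± 0.12 and 0.05 ± 0.19 between old cells without competition and young cells (SE). The Bbc3 result therefore rests on 1 probe. For that probe, old with competition minus young was -0.24 ± 0.50 (SE; limma adjusted p = 0.953), and -0.59 ± 0.47 without array 6, which had the highest Bbc3 value of all arrays at 8.55. Old without minus old with competition was -1.28 ± 0.46 (SE; limma adjusted p = 0.195), and -0.92 ± 0.43 without array 6 (limma adjusted p = 0.353).

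Pmaip1, which encodes the BH3-only protein NOXA, and Phlda3, which encodes an inhibitor of Akt signalling, were close to the floor. Pmaip1 was detected on 7 of 9 arrays of old cells without competition, 5 of 6 with competition, 4 of 6 of young cells, 0 of 2 TN3 arrays and 1 of 2 TN2 arrays. Its values spanned 4.23 to 4.97, 4.15 to 4.47 and 4.19 to 4.55 in old cells without, old cells with competition and young cells. Old without competition minus young was 0.20 ± 0.11 (SE; limma adjusted p = 0.303). Phlda3 was detected on 2 of 9, 4 of 6 and 2 of 6 arrays of these groups, on 1 of 2 TN3 arrays and on 0 of 2 TN2 arrays, and no value exceeded 4.89. Differences this close to the floor are understated on this scale.

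Mdm2 encodes the ligase that closes the feedback loop on p53. By its brightest probe, it had the smallest difference of all measured members for old without competition minus young. Its lowest, median and highest values were 9.32, 9.50 and 9.89 in old cells without competition, 9.11, 9.40 and 10.20 with competition and 9.17, 9.61 and 9.80 in young cells. The old and young groups overlapped, and the 10.20 was array 6. The TN3 arrays read 9.54 and 9.52, and the TN2 arrays 9.87 and 9.76. These controls did not overlap each other, which held for 37.3% of all genes. TN3 minus TN2 was -0.29 ± 0.27 (SE; limma adjusted p = 0.797), the largest difference of any measured member in that comparison. Old without competition minus young was -0.01 ± 0.15 (95% interval -0.31 to 0.30), and old with competition minus young was -0.07 ± 0.16 (95% interval -0.40 to 0.25). Without array 6 the second difference was -0.22 ± 0.14 (SE; limma adjusted p = 0.542). Old without minus old with competition was 0.07, and 0.21 without array 6 (limma adjusted p = 0.518). One of the other Mdm2 probes read higher in old cells, by 0.76 ± 0.24 without and 0.48 ± 0.26 with competition (SE), and passed the test in neither comparison.

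Ccng1, the cyclin G1 gene and a long-known p53 target, passed the test in no comparison. Its values spanned 7.75 to 8.20 in old cells without competition, 7.41 to 8.18 with competition and 7.57 to 8.03 in young cells. Old without competition minus young was 0.06 ± 0.12 (95% interval -0.20 to 0.31), and old with competition minus young was -0.01 ± 0.13 (95% interval -0.28 to 0.26), or -0.08 ± 0.13 without array 6. For this brightest probe, the 5 group means spanned 0.15 log2 units, against 1.83 for Cdkn1a. The dimmest of the 3 Ccng1 probes, also detected on all 25 arrays, differed more, by 0.16 ± 0.15 for old without competition minus young, -0.37 ± 0.16 for old with competition minus young and 0.54 ± 0.15 for old without minus old with competition (SE). It passed the test in none of them.

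The sestrin genes Sesn1 and Sesn2 encode stress proteins that restrain mTORC1 signalling. Sesn1 had lowest, median and highest values of 7.21, 8.23 and 8.55 in old cells without competition, 7.62, 8.11 and 9.31 with competition and 8.44, 8.59 and 8.93 in young cells. Most old arrays of both kinds lay below the lowest young array, but the groups overlapped. Old without competition minus young was -0.54 ± 0.20 (SE; limma adjusted p = 0.111), and old with competition minus young was -0.39 ± 0.22 (SE; limma adjusted p = 0.578). Without array 6, which had the highest Sesn1 value of all arrays at 9.31, the second difference was -0.60 ± 0.19 (limma adjusted p = 0.072). Old without minus old with competition was -0.15 with array 6 and 0.06 without it (limma adjusted p = 0.931). The other Sesn1 probes gave -0.67 ± 0.20 and -0.34 ± 0.23 for old without competition minus young (SE), and the first of them passed the test. Sesn2 was near the floor, at 4.13 to 5.17 in old cells without competition, 4.25 to 4.82 with competition and 4.34 to 5.07 in young cells, and was detected on 5 of 9, 4 of 6 and 6 of 6 arrays.

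**Figure D3:**
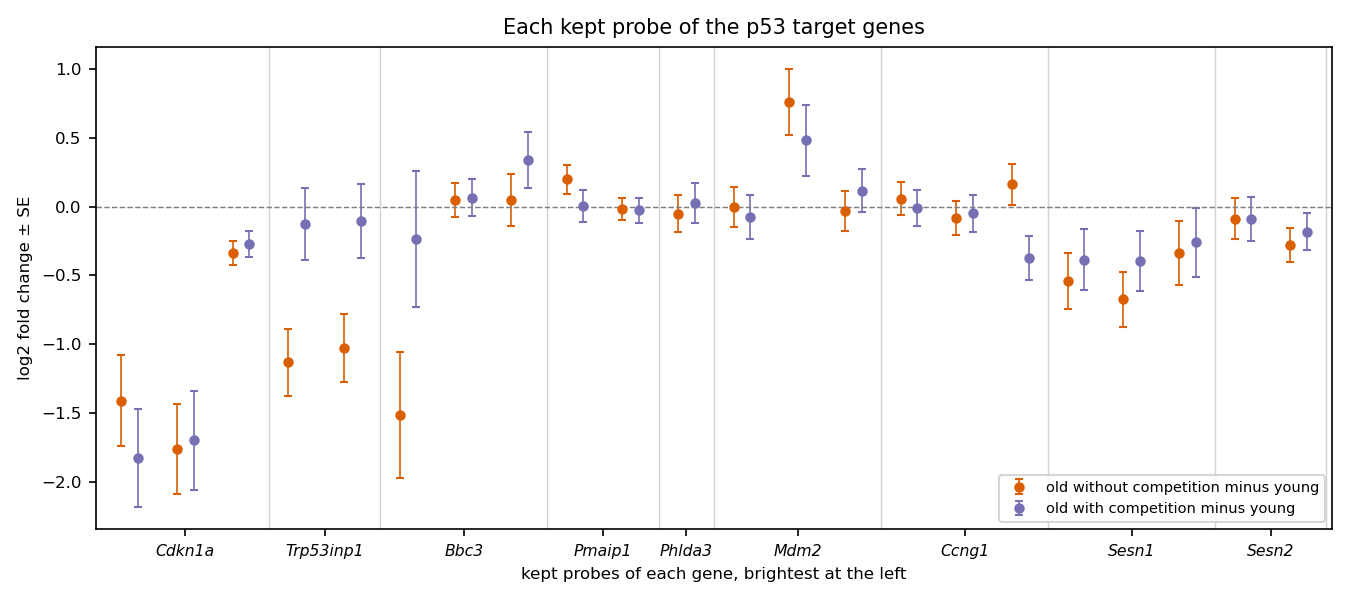
Log2 fold change ± SE (vertical axis) of each kept probe of the p53 target genes, for old without competition minus young and old with competition minus young; each gene's probes run from the brightest at the left. The Trp53inp1 probes moved alike, at -1.13 and -1.03 without competition, whereas the Bbc3 probes gave -1.52, 0.05 and 0.05.

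The other probes of the called genes were also read. The second Cdkn1a probe gave -1.76 ± 0.33 for old without competition minus young and -1.70 ± 0.36 for old with competition minus young (SE). The dimmest probe, detected on 6 of the 25 arrays, gave -0.34 ± 0.09 and -0.27 ± 0.09. The second Trp53inp1 probe gave -1.03 ± 0.25 and -0.11 ± 0.27. For old without minus old with competition this probe gave -0.92 ± 0.25 (SE). Tested over all kept probes, it did not pass between the old groups, whereas the brighter Trp53inp1 probe did.

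Counted together, 3 of the 9 measured target genes were lower and 0 were higher in old cells without competition than in young cells (limma, adjusted p below 0.05). Over all genes, 8.93% were called in that comparison, 5.76% as lower. In old cells with competition, 1 of 9 was lower and 0 were higher than in young cells, where 2.92% of all genes were called and 2.5% were lower. Between the old groups, 1 of 9 was lower without than with competition and 0 were higher, against 1.24% of all genes called and 0.83% lower. In each of these comparisons 1 member had groups that did not overlap: Trp53inp1 in the first (3.2% of all genes), Cdkn1a in the second (2.65%) and Trp53inp1 in the last (0.708%). The median log2 difference of the 9 genes was -0.09, -0.09 and 0.01 in these comparisons, and that of all genes 0.02, 0.005 and 0.02. The remaining 6, 8 and 8 members did not pass the test. The counts depended on the scaling: with arrays scaled to a common median in place of quantile normalization, old cells without competition had 6 members lower than young cells and 5 lower than old cells with competition. That scaling moved the median log2 difference of all genes to -0.17 and -0.20 and raised the calls over all genes to 3950 and 3425, nearly all lower. The added members were Mdm2, Ccng1 and Sesn1 in both comparisons, and Bbc3 between the old groups. Both comparisons with young cells share the young arrays.

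**Figure D4:**
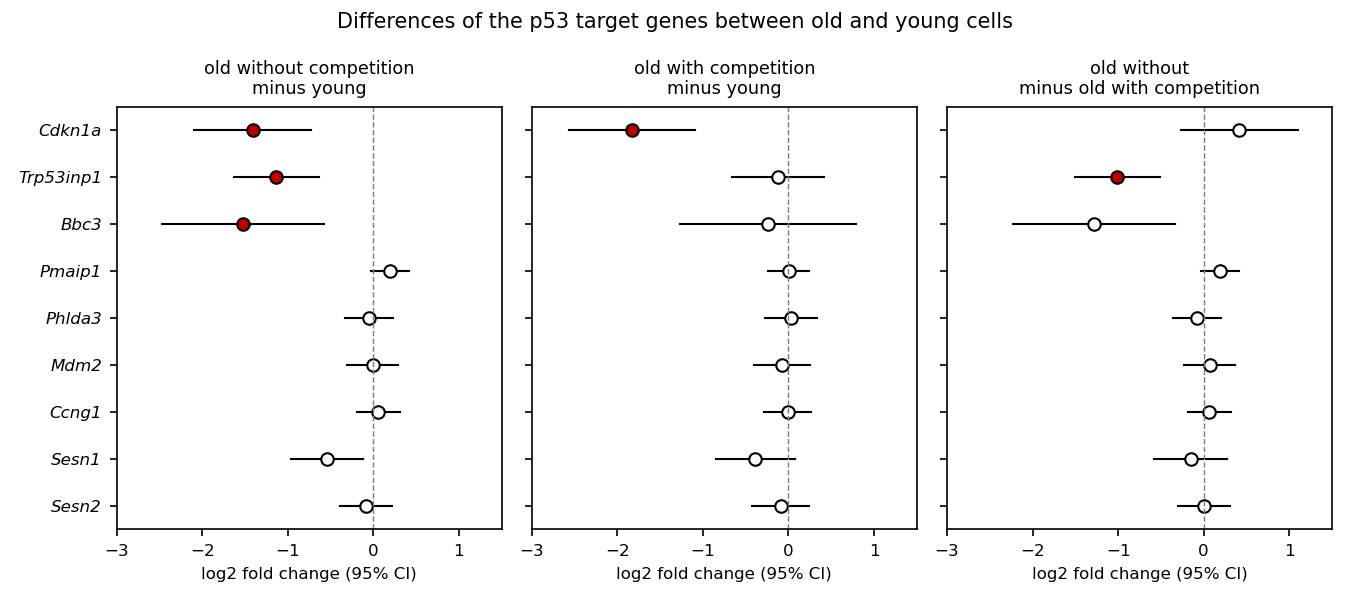
Log2 fold change (horizontal axis) with its 95% confidence interval for the 9 measured p53 target genes in the 3 comparisons of old and young cells. Filled red points passed an adjusted p of 0.05, which were Cdkn1a, Trp53inp1 and Bbc3 for old without competition minus young, Cdkn1a for old with competition minus young and Trp53inp1 between the old groups.

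Against the wild type stage controls, which had 2 arrays each, limma called 0 of the 9 genes in any comparison. At an unadjusted p below 0.05, it counted 3 for old without competition against TN3, 1 for old with competition against TN3, 0 for young against TN3 and 0 for TN3 against TN2, where 15%, 15.7%, 16.3% and 10.9% of all genes lay below that p. Of all genes, 2.36%, 3.78%, 3.67% and 1.17% were called in these comparisons, which does not show that these members could be called at this size. The 3 for old without competition were Cdkn1a and Bbc3, which were lower, and Pmaip1, which was higher. Bbc3 differed by -1.66 ± 0.67 (SE) and Pmaip1 by 0.34 ± 0.16 (SE). Pmaip1 was detected on 0 of 2 TN3 arrays and lay above both on every array of that old group. Cdkn1a was below both TN3 arrays on every old array, a separation that 10.3% of all genes had for old cells without competition and 15% for old cells with competition. Its log2 difference from TN3 was -1.25 ± 0.49 without competition (SE; limma adjusted p = 0.194) and -1.66 ± 0.51 with competition (SE; limma adjusted p = 0.067), or -1.39 ± 0.46 without array 6 (limma adjusted p = 0.068). For Trp53inp1 the log2 difference from TN3 was -0.69 ± 0.35 without competition (SE; limma adjusted p = 0.380) and 0.32 ± 0.37 with competition (SE; limma adjusted p = 0.762). On chip 5, which held 3 arrays of old cells without competition and 1 TN3 array, the difference was -1.77 for Cdkn1a and -1.20 for Trp53inp1. The other TN3 array, at 8.13 for Trp53inp1, lay within the range of old cells without competition. These values are of each gene's brightest probe, and other probes differed from them. Against TN3, the second Trp53inp1 probe gave -1.24 ± 0.37 without and -0.31 ± 0.39 with competition (SE). One of the other Mdm2 probes gave -0.96 ± 0.37 for young minus TN3 (SE). Tested over all kept probes, none of these 3 differences passed.

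The wider p53 pathway was read from 4 further lists of known members. Of 16 regulators of p53, all measured, 1 was higher and 1 was lower in old cells without competition than in young cells, close to the 8.93% called over all genes. The lower one was Atm, the kinase that signals DNA double-strand breaks to p53, with means of 5.18 in old cells without competition and 5.68 in young cells (-0.51 ± 0.15 SE; limma adjusted p = 0.031). With the mean of its probes the difference was -0.30 and the call was lost (limma adjusted p = 0.133). Atm averaged 5.14 in old cells with competition, -0.55 ± 0.16 from young cells (limma adjusted p = 0.072). The higher one was Trp53bp1, the break-repair protein 53BP1, at 8.02 against 7.62 (0.40 ± 0.11 SE; limma adjusted p = 0.023), whose sign turned to -0.16 when arrays were scaled to a common median. Trp53bp1 was also higher in old cells without than with competition, which averaged 7.51 (0.51 ± 0.11 SE; limma adjusted p = 0.019), and that sign too turned, to -0.04, under median scaling. In old cells with competition against young cells, limma called 0 of the 16 regulators, with 2 at an unadjusted p below 0.05, where 11.6% of all genes lay.

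Among 10 measured of 12 other death-related targets, 1, Bid, was higher in old cells without competition than in young cells, a share close to the 8.93% of all genes. Bid encodes a BH3-only protein that links death receptors to mitochondria. It averaged 7.30 in old cells without competition and 6.14 in young cells (1.16 ± 0.27 SE; limma adjusted p = 0.0072), the opposite direction to Bbc3. With arrays scaled to a common median the difference was 0.64 and did not pass (limma adjusted p = 0.165). In old cells with competition it averaged 6.84 (0.70 ± 0.29 from young cells, SE; limma adjusted p = 0.303). Without array 6, on which Bid read 5.61, that difference was 0.95 ± 0.26 (limma adjusted p = 0.038). The other 9 passed the test in none of the 3 comparisons of old and young cells.

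Of 7 measured of 8 other targets of arrest and growth control, limma called 0 in these 3 comparisons, with 1 for old without competition against young, 0 for old with competition against young and 2 between the old groups at an unadjusted p below 0.05. Of all genes, 21.4%, 11.6% and 13.1% lay below that p in these comparisons. Of 6 measured of 9 targets in DNA repair and metabolism, limma called 0 in the same comparisons, with 0 at an unadjusted p below 0.05. Against TN3, 1 of the 7 arrest and growth targets was called higher in each old group and in young cells. Of the 16 regulators, 1 was higher without competition, and 1 was higher and 1 lower with competition. The lower one was Trp53bp1 (-0.66; limma adjusted p = 0.030). Of all genes, 2.36% without competition, 3.78% with competition and 3.67% in young cells were called against TN3.

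For some pairs of target genes, the correlation over the arrays depended on array 6. Over all 25 arrays, Pearson's r between Cdkn1a and Trp53inp1 was 0.14, and -0.21 after each group's mean was removed. Over the 24 arrays without array 6 it was 0.59, and 0.32 within groups. Between Trp53inp1 and Sesn1 it was 0.59 over all arrays (0.60 within groups) and 0.46 without array 6 (0.21 within groups). Between Mdm2 and Sesn1 it was 0.56 (0.60 within groups) and 0.44 without array 6 (0.33 within groups). Other pairs went the opposite way. Between Bbc3 and Pmaip1, which was near the floor, r was -0.58 (-0.39 within groups) and -0.61 without array 6 (-0.45 within groups). Within groups and without array 6, r was -0.44 between Ccng1 and Sesn1. It was -0.33 between Trp53inp1 and Mdm2, against 0.31 within groups with array 6. These values describe arrays that share chips and groups. Over the same 25 arrays, among genes detected on all of them, the patterns most like that of Cdkn1a were those of Lat2 (r = 0.84), Rab8b (0.83) and Vav3 (0.82). Those most like Trp53inp1 were Mier1 (0.84), Agtrap (0.84) and Igtp (0.83). Those most like Ccng1 were Med4 (0.74), Pcgf3 (0.61) and Cmip (0.59). All were picked as the highest r among 5947 genes searched for Cdkn1a and 5946 for each of the others. What r a search of that size gives by chance was not tested. Without array 6, the same pairs had r from 0.55 for Ccng1 and Cmip to 0.80 for Cdkn1a and Lat2. Lat2 averaged 8.19 ± 0.83 in old cells without competition, 7.64 ± 0.86 with competition and 10.7 ± 0.22 in young cells (SD). Agtrap averaged 8.01 ± 0.30, 8.89 ± 0.54 and 9.19 ± 0.12 in the same groups (SD).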

How the data were processed

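Total RNA of 25 samples was measured on 25 Illumina bead arrays of 5 chips, per the labels' protocols. The chip was read from sample titles and is the only batch the labels gave. The deposited table held an intensity per probe on a linear scale, neither background-subtracted nor scaled between arrays, as its values show. A deposited detection p-value stood beside each intensity, and the labels do not name its test. The authors also deposited quantile-normalized log2 values, whose columns correlated with the log2 intensity of the same sample at 0.995 or more. This second table gave one of the alternatives.

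The neqc function of limma 3.58.1 (R 4.3.3) corrected intensities for background, read from the detection p-values, quantile normalized them and took log2 after adding 16. This offset understates fold changes of dim genes. Probes with a detection p-value below 0.05 on at least 3 arrays were kept (30174 of 46237). The platform annotation gave 35784 probes 1 symbol, 0 several and 10453 none. Symbols were updated through RefSeq by gene identifier (28620) or accession (2637), which changed 937. The brightest kept probe stood for a gene, giving 15533 genes.

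All arrays entered 1 limma model with group means and the chip as a random block (statmod 1.5.0, correlation within chips 0.0046). Tests were two-sided with Benjamini-Hochberg adjustment over all genes, and an adjusted p below 0.05 is a call. The number of arrays limits the precision. No pair of arrays held identical values. Samples were grouped by source label, and replicate numbers followed accession order and pair nothing.

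All target genes were named, and other genes of the pathway lists where called between old and young cells; for Cdkn1a, Trp53inp1 and Ccng1, the 3 named genes that correlated best over the arrays were added, among genes detected on all of them. The target genes and all lists were chosen with earlier results of these data known. Alternatives covered background, normalization, filter, probe choice, chip, array weights, samples in the fit, chips alone and each array left out. Trp53 is not analysed here, having no annotated probe.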

Additional observations from a re-analysis of the deposited data

Results flagged for a closer look

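In 36 sets of 6 or 9 arrays of 1 gene, 5 had an array that stood far from the others of its group; chance does so in about 1 of 20 sets. Of these arrays, 3 were array 6 of old cells with competition. It read 4.16 for Cdkn1a, where the group's others lay between 5.50 and 6.26, and 10.26 for Trp53inp1, where they lay between 8.30 and 8.88. It read 5.61 for Bid, where the others lay between 6.88 and 7.35. Array 1 of old cells without competition read 8.58 for Bid, where the others lay between 6.65 and 7.43. Array 3 of old cells with competition read 4.15 for Pmaip1, not detected there, where the others lay between 4.37 and 4.47.

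The differences of the old groups from young cells were unequal for 2 genes, as tested in the model. Trp53inp1 was lower without than with competition by a log2 difference of -1.01, and Trp53bp1 was higher without competition by 0.51.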

How the results depend on the processing

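Of the called target genes, Cdkn1a in old cells without competition against young (-1.94 to -0.79) and Trp53inp1 in the same comparison (-1.69 to -0.91) passed under all 8 other settings and with each array left out. Cdkn1a in old cells with competition against young was lost on chip 2 alone. The calls of Bbc3 and of Trp53inp1 between the old groups were less stable, as given beside them.

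Scaling to a common median called 6, 5, 3 and 4 target genes in old without competition against young, old without against old with competition, old with competition against TN3 and young against TN3 (main analysis 3, 1, 0 and 0). Under it, all-gene calls were 3950, 3425, 2976 and 3130, against 1387, 193, 587 and 570 in the main analysis, and the share of calls that were higher went to 2.86%, 1.23%, 96.6% and 96.7%, against 35.5%, 33.2%, 61.0% and 67.7%. For TN3 against TN2 it called 84 genes (17.9% higher), against 181 (32.6% higher), and for old without competition against TN3 66 (66.7% higher), against 366 (47.3% higher). Signs turned under it for Ccng1 (-0.50) and Trp53bp1 (-0.16) in old without competition against young, for Mdm2 (-0.43), Ccng1 (-0.48) and Trp53bp1 (-0.041) between the old groups, for Mdm2 (0.81) and Trp53bp1 (0.21) in old with competition against TN3, and for Sesn1 (0.86) in young against TN3. The all-gene median moved in the same comparisons, to -0.17, -0.20, 0.23 and 0.25.

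Array weights called 2 target genes in old with competition against young (Sesn1 added, -0.54) and 2167, 1077, 577, 82 and 182 genes in old without competition against young, old with competition against young, the old groups, TN3 against TN2 and old without competition against TN3. Fitting only the 2 groups called 2142 genes in old without competition against young, 26 in old with competition against TN3 and 0 target genes between the old groups, and no filter on dim probes also called 0 there. Chip 2 alone called 0 target genes and 43 genes, and chip 4 alone 235 genes, in old with competition against young (454 in the main analysis). Chip 5 alone called 0 genes in old without competition against TN3, with 1970 at an unadjusted p below 0.05 (limma).

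With arrays left out in turn, the target genes called between the old groups ranged over 0 to 1 and the genes over 107 to 328, the lowest without array 1 and the highest without array 6 with competition, and 121 without its array 4. The genes called were 128 to 397 for old without competition, 94 to 1181 for old with competition and 151 to 581 for young cells against TN3. Each lowest count came without TN3 array 2, and the 1181 without array 6. Atm's call was lost without young array 3, 5 or 6 or array 2 or 8 of old cells without competition. That of Trp53bp1 against young was lost without young array 2 or 6, and between the old groups without array 1, 4 or 5 with competition. The mean of its probes also ended both calls (0.15 and 0.24). No paired analysis was possible because the labels give no replicate number shared between groups. Causes were not tested. Values near the floor limit Pmaip1, Phlda3 and Sesn2.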
